A study of Mus musculus with 4 samples.

Results

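The genes that make, store, take up and break down serotonin, histamine and the catecholamines were followed in 2 populations of mouse gastric tumour cells. The set held 10 genes: Tph1, Hdc, Ddc, Th, Gch1, Slc18a1, Slc18a2, Slc6a4, Maoa and Maob. They were chosen by name, with earlier results of these data known. Every probe whose accession named one of them was taken, which gave 14 probes of the 41174 gene probes on the array and 10 of the 17016 genes with a symbol. The tumours came from the glandular stomach of K19-Wnt1/C2mE transgenic mice at 30 weeks of age. In this line the keratin 19 (K19) promoter drives Wnt1, together with the prostaglandin-synthesising enzymes COX-2 and mPGES-1 (C2mE), in stomach epithelium. Cells without lineage markers (Lin-) were sorted by the surface protein CD44 into Lin- CD44+ and Lin- CD44- cells, and RNA of each was measured on 2 one-colour Agilent arrays, labelled replicates 1 and 2. Both populations thus carried the same transgenes and came from tumours, and no array of normal stomach or of another genotype entered the comparison. The lineage markers used for the gate, the number of mice and any pooling are not given in the sources used here, so the replicates may be technical, and a p-value reflects no more than the variation among these 4 samples.

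Serotonin is made from tryptophan by a hydroxylase, TPH1 outside the nervous system, followed by aromatic amino acid decarboxylase, the product of Ddc. Histamine is made from histidine in a single step by histidine decarboxylase, the product of Hdc, and catecholamines start from tyrosine hydroxylase, the product of Th. TPH1 and TH both need tetrahydrobiopterin, a cofactor whose synthesis begins with GTP cyclohydrolase, the product of Gch1. The amines are loaded into vesicles by VMAT1 (Slc18a1) or VMAT2 (Slc18a2), serotonin is taken back into cells by SERT (Slc6a4), and the mitochondrial monoamine oxidases MAO-A and MAO-B oxidise them. In the stomach, histamine is known as the product of enterochromaffin-like cells, which drive acid secretion, serotonin as that of enterochromaffin cells, and both amines are also stored by mast cells.

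Levels are given as log2 of the scanner's processed signal relative to the 75th percentile of that array, so 0 is the signal of a probe at that percentile. A difference is the mean level of the 2 CD44+ arrays minus that of the 2 CD44- arrays, with its standard error from limma, and a gene was called at a Benjamini-Hochberg adjusted p under 0.05 over the 21045 genes tested. The 75th percentile of the processed signal was 243.8 to 526.6 units over the 4 arrays, and 53.1% to 69.6% of probes were well above background, the lowest value of both being that of CD44+ replicate 1. No gene spot was saturated. Cd44 itself was higher in the CD44+ cells by 1.74 ± 0.49 (adjusted p = 0.199), and its levels on the CD44+ arrays (6.31 and 6.54) lay above those on the CD44- arrays (4.26 and 5.11). All 6 epithelial markers passed the filter on low signal described below. All 4 arrays were on 1 slide and had 1 scan.

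The clearest difference lay in Tph1, the serotonin-synthesising enzyme, which was 27.3-fold lower in CD44+ than in CD44- cells (log2 difference -4.77 ± 0.52, n = 2 arrays a group, limma adjusted p = 0.0162). The histamine-synthesising Hdc (-4.83 ± 0.81, adjusted p = 0.0631) and the oxidase Maoa (-3.82 ± 0.60, adjusted p = 0.0520) had differences of like size and did not pass the threshold. Slc18a2, Maob and Ddc had lower means in CD44+ cells without passing it, Slc18a1 differed by -0.20, and Gch1 was the member with a higher mean in CD44+ cells. Of the 10 genes, 8 passed the filter, under which 1 group at least had to have both its arrays well above background, and Th and Slc6a4 did not. Tph1 was the 1 called member among those 8, against 0.399% of all genes (84 of 21045), of which 0.375% were lower and 0.0238% higher in CD44+ cells. The levels of the groups did not overlap for any of the 8, which was also so for 39.6% of all genes. With the direction, the share without overlap was 17.2% of all genes lower and 22.4% higher in CD44+ cells. In 7 of the 8 the difference was below 0, against 39.4% of all genes, and the median difference of the 8 was -2.73, against 0.16 over all genes. Since the members were chosen with earlier results of these data known, these comparisons with all genes are descriptions and not tests. In sorted cells measured in bulk, fewer cells of a type and less RNA per cell cannot be told apart.

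**Figure D1:**
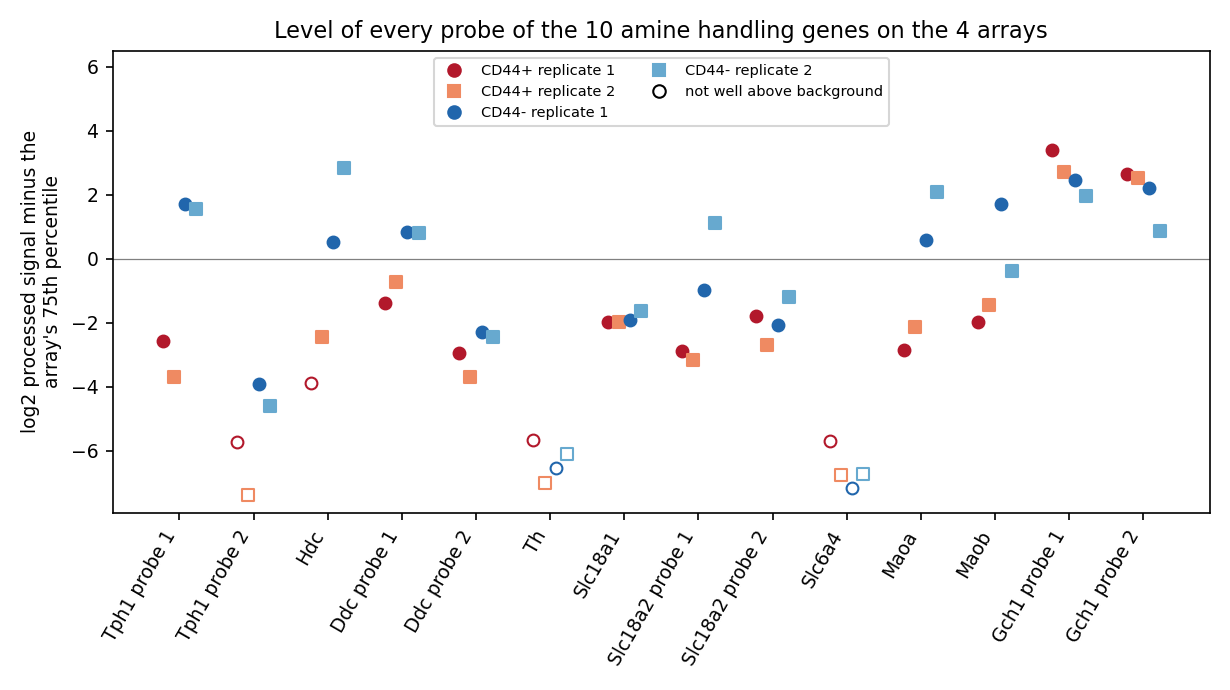
Level of each of the 14 probes on each array (vertical axis, log2 processed signal relative to the array's 75th percentile), with circles for replicate 1, squares for replicate 2 and open symbols where the probe was not well above background. The brighter Tph1 probe lay at -2.58 and -3.71 in CD44+ and at 1.71 and 1.54 in CD44- cells, while the Slc18a1 points of both groups lay between -1.98 and -1.65.

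**Figure D2:**
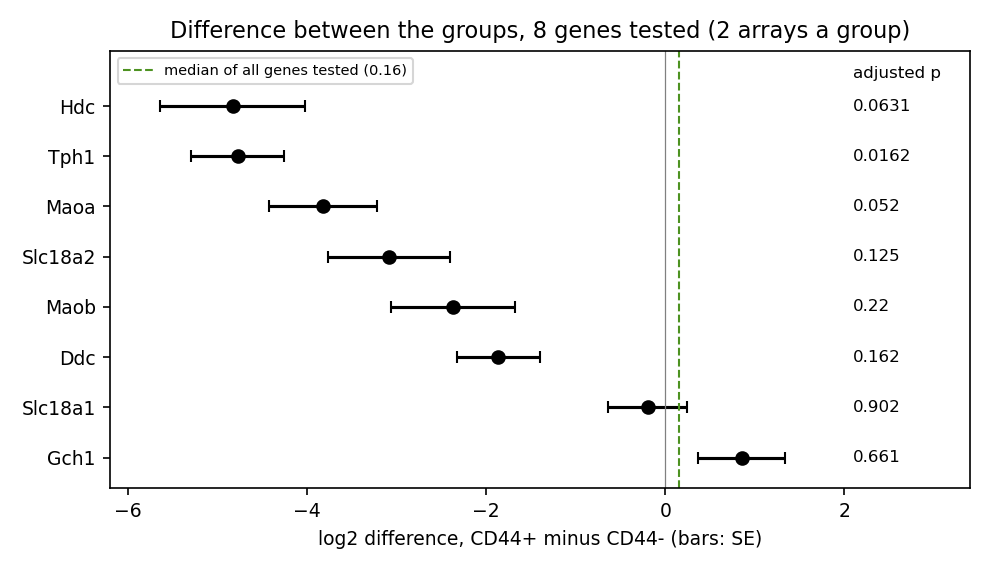
Log2 difference, CD44+ minus CD44-, of the 8 tested members (points) with 1 standard error from limma on either side (bars) and the adjusted p at the right, beside the median of all genes (0.16, dashed line). Tph1 has the smallest adjusted p, 0.0162, and Slc18a1, at -0.20, lies nearest to 0.

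The sequences upstream of 4 members are shown because these genes span the outcomes in the set: Tph1, which was called, Hdc and Maoa, with large differences that were not, and Gch1, with the opposite sign. Each is the 250 bases before an annotated transcript start, read in the gene's direction, from the RefSeq promoter table of GRCm38.p6, which held 8 of the 10 members (Slc18a1 and Maob were not matched). Capitals mark matches on either strand to 4 promoter motifs. These were the GC box, with the letters GGGCGG, the TATA box, with the letters TATAAA, the box named for its letters CCAAT, and the cAMP response element, with the letters TGACGTCA. Tph1 lies on the minus strand of chr7:46667378-46667627, Hdc on the minus strand of chr2:126618679-126618928, Maoa on the plus strand of chrX:16619448-16619697 and Gch1 on the minus strand of chr14:47189414-47189663.
Tph1: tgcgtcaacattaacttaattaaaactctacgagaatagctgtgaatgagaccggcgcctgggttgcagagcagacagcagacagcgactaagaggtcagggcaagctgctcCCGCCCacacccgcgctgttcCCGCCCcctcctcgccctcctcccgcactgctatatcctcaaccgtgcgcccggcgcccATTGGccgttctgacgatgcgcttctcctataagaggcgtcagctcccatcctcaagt
Hdc: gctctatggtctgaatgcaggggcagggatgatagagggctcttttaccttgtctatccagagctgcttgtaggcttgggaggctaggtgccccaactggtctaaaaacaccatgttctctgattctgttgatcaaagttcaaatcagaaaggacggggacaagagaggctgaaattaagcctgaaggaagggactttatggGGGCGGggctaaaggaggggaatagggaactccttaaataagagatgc
Maoa: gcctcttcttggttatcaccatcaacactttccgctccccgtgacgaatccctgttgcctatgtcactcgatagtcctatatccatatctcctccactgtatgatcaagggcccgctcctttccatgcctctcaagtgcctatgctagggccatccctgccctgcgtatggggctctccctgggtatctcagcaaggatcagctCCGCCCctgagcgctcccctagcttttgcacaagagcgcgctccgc
Gch1: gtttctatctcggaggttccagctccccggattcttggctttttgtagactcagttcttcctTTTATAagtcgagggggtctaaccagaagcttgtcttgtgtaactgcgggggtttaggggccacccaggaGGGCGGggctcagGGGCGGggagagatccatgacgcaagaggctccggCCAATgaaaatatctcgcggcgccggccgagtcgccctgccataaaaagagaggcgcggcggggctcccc

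The Tph1 window had GC boxes 138 and 117 bases before the start and a CCAAT box 58 bases before it, with a GC content of 58.8% against a median of 52.4% over the 32851 windows of the table. A second annotated Tph1 start, with its window at chr7:46672538-46672787, held none of the motifs searched. The Hdc window, at 48.8% GC, had 1 GC box 48 bases before the start, and the Maoa window, at 56.8% GC, had 1 at 46 bases. The Gch1 window, at 59.2% GC, had GC boxes at 118 and 105 bases, a CCAAT box at 70 and a TATAAA match at 188. An E box (CANNTG, not capitalised) stood 157 bases before the Hdc start and 118 bases before the Maoa start. These motifs are common: of all windows, 32.7% held GGGCGG, 33.9% CCAAT, 66.2% CANNTG, 12.4% TATAAA and 1.55% TGACGTCA. The matches describe letters in these windows and do not set the called gene apart from the others.

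Among the synthetic enzymes, Tph1 was read by 2 probes. The brighter gave levels of -2.58 and -3.71 on the CD44+ arrays and of 1.71 and 1.54 on the CD44- arrays, well above background on all 4. In processed signal these were 40.8 and 37.7 units against 1334 and 1535 units, so both CD44- arrays stood far above both CD44+ arrays. The gap between the groups exceeded the spread within either, and the 95% interval of the difference ran from -5.97 to -3.58. Tph1 ranked 20 among all genes by p-value. Its dimmer probe read -5.72 and -7.39 in CD44+ against -3.92 and -4.62 in CD44- cells and both its CD44+ values were at background. That probe placed Tph1 at least 1.01-fold lower in CD44+ cells, with a limma adjusted p of 0.189 over probes, so it bounded the difference only loosely. For such a bound the level on a background array was raised, where it was lower, to the lowest level among probes well above background on that array. Without CD44+ replicate 2 the brighter probe's difference was -4.21 (adjusted p = 0.175), which lost the call. Quantile normalisation (adjusted p = 0.0742) and testing with no filter on low signal (adjusted p = 0.0523) also lost it.

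Hdc had 1 probe, at -3.87 and -2.44 in CD44+ and at 0.52 and 2.84 in CD44- cells, or 16.7, 91.0, 585 and 3765 units of processed signal. It was not well above background on CD44+ replicate 1 and was so on the other 3 arrays. Both CD44- arrays lay above both CD44+ arrays, but replicate 2 exceeded replicate 1 within each group. The difference was 28.5-fold, as large as that of Tph1, with a wider 95% interval of -6.69 to -2.97 and an adjusted p of 0.0631. With CD44+ replicate 1 set to the lowest level that counts as well above background on that array, the difference was -4.61. The size depended on which CD44- array was used. Leaving out CD44- replicate 1 gave -5.99 and leaving out CD44- replicate 2 gave -3.68. Without CD44+ replicate 1 the difference was -4.12, and without CD44+ replicate 2 it was -5.55.

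Ddc, the decarboxylase that completes serotonin synthesis and acts in catecholamine synthesis too, had levels of -1.37 and -0.72 in CD44+ and of 0.84 and 0.80 in CD44- cells. The 2 CD44- arrays were nearly equal and above both CD44+ arrays. The difference of -1.87 ± 0.46 (3.64-fold lower) did not pass the threshold (limma adjusted p = 0.162, 95% interval -2.94 to -0.80). The second Ddc probe, at -2.93 and -3.70 against -2.30 and -2.45, had the same sign and a smaller difference, -0.94 ± 0.48.

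Th, the entry enzyme of catecholamine synthesis, was printed in 10 spots and was not well above background on any array. Its processed signal was 4.78 and 3.83 units in CD44+ and 4.35 and 7.64 units in CD44- cells, so the groups overlapped and no difference was tested.

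Gch1, the cofactor enzyme, was the member with the opposite sign. It read 3.41 and 2.72 in CD44+ and 2.47 and 1.95 in CD44- cells, 1.81-fold higher in the former by the means, with a difference of 0.85 ± 0.48 (limma adjusted p = 0.661). The gap between the nearest arrays of the groups was smaller than the spread within each group, and the 95% interval of -0.26 to 1.97 leaves both signs possible. The second Gch1 probe gave 2.64 and 2.52 against 2.21 and 0.88, a difference of 1.04 ± 0.54 in the same direction.

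The vesicular transporters differed in their values. Slc18a1 (VMAT1), the form typical of neuroendocrine cells, read -1.97 and -1.98 in CD44+ and -1.91 and -1.65 in CD44- cells. Its difference was -0.20 ± 0.44 (limma adjusted p = 0.902), and the 95% interval of -1.21 to 0.82 includes both signs. Slc18a2 (VMAT2), the form of monoamine neurons, mast cells and enterochromaffin-like cells, read -2.87 and -3.16 in CD44+ and -0.96 and 1.11 in CD44- cells. Both CD44- arrays were higher, and the difference was 8.49-fold (-3.09 ± 0.68, limma adjusted p = 0.125, 95% interval -4.65 to -1.52). The 2 CD44- arrays were themselves 2.07 apart, more than the gap to the nearest CD44+ array. The difference was -4.12 and called without CD44- replicate 1, and -2.05 and not called without CD44- replicate 2. A second Slc18a2 probe did not show it: it read -1.79 and -2.71 in CD44+ and -2.08 and -1.19 in CD44- cells, with overlapping groups and a difference of -0.61 ± 0.54 (adjusted p = 0.801 over probes). Whether VMAT1 and VMAT2 differed from each other in response was not tested.

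Slc6a4, the plasma-membrane serotonin transporter, was not well above background on any array. Its processed signal was 4.66 and 4.53 units in CD44+ and 2.86 and 4.96 units in CD44- cells, and it was not tested.

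The monoamine oxidases, whose genes lie next to each other on chromosome X, both had lower means in CD44+ cells. Maoa, whose enzyme prefers serotonin and noradrenaline, read -2.84 and -2.13 in CD44+ and 0.58 and 2.09 in CD44- cells. Both CD44- arrays lay above both CD44+ arrays by more than the spread within either group, and the difference was 14.2-fold, with a 95% interval of -5.21 to -2.44. Its adjusted p of 0.0520 lay just outside the threshold. With each probe tested as its own feature, where 0.43% of probes were called, it was 0.0453. Quantile normalisation raised it to 0.210 and testing with no filter on low signal to 0.160. The calls of Maoa over all settings are given below. Dropping a CD44+ array moved the Maoa difference to -3.47 (replicate 1 dropped) or -4.18 (replicate 2 dropped). Dropping a CD44- array gave -4.58 (replicate 1) or -3.07 (replicate 2). Maob, whose enzyme prefers phenylethylamine, read -1.98 and -1.43 in CD44+ and 1.71 and -0.38 in CD44- cells. Here CD44- replicate 1 was the higher array, while for Maoa it was replicate 2. The Maob difference was -2.37 ± 0.69 (5.16-fold, limma adjusted p = 0.220, 95% interval -3.96 to -0.77), and the gap to the nearest CD44+ array was smaller than the spread between the CD44- arrays. It was -1.32 without CD44- replicate 1, and -3.41 and called without CD44- replicate 2.

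The members separated by how the 2 CD44- arrays compared with each other. Tph1 and Ddc were nearly equal on them, with CD44- replicate 2 minus replicate 1 at -0.17 and -0.04, close to the median of -0.15 over all genes. Slc18a1, at 0.26, and Gch1, at -0.52, also moved by less than 2-fold. Hdc, Slc18a2 and Maoa were higher on replicate 2 by 2.31, 2.07 and 1.51, which is at least 2-fold, as were 10.9% of all genes. Maob went the other way, at -2.09, with the 9.31% of genes at least 2-fold lower. On the CD44+ arrays replicate 2 minus replicate 1 was 1.43 for Hdc, 0.71 for Maoa and 0.54 for Maob, -0.28 for Slc18a2 and -1.13 for Tph1.

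**Figure D3:**
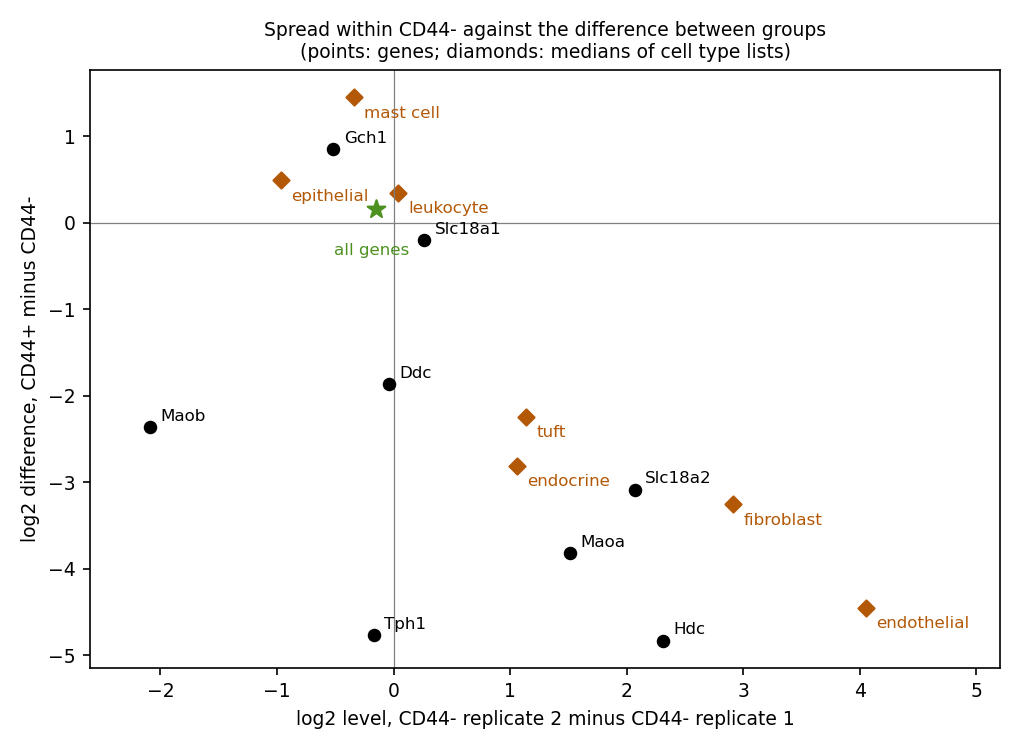
Level on CD44- replicate 2 minus level on CD44- replicate 1 (horizontal axis, log2) against the difference between the groups (vertical axis, log2, CD44+ minus CD44-) for the 8 tested members (circles), the medians of 7 cell-type lists (diamonds) and the median of all genes (star). On the horizontal axis Hdc (2.31), Slc18a2 (2.07) and Maoa (1.51) lay right of 0 and Maob (-2.09) left of it, beside medians of 2.91 for the fibroblast, 4.05 for the endothelial and 1.05 for the endocrine list.

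Markers of several other cell types moved between the same arrays, and their part in the members' differences was not tested. Their levels are given as sums over each list, in multiples of the array's 75th percentile. The 13 endocrine markers with a probe, of which 12 were tested, summed to 5.50 and 5.86 on the CD44+ and to 308 and 718 on the CD44- arrays. Most of the CD44- sums came from Ghrl (log2 levels 7.38 and 8.51) and Chga (6.29 and 7.93). All 12 had fitted differences below 0, 5 of them called, with a median of -2.81, although Scg2, Insm1 and Neurod1 were at background on both CD44+ arrays and Scg2 would be at 0.37 with those raised to the lowest level well above background. Chgb, a granule protein of endocrine cells, fell by 8.06 ± 0.48 in CD44+ cells (limma adjusted p = 0.00174), the hormone gene Sst fell by 6.41 ± 0.65 (adjusted p = 0.0139) and the granule gene Scg5 was called at a fitted -5.79 ± 0.61 (adjusted p = 0.0140), or -4.67 with its background value on CD44+ replicate 1 raised in that way. Syp was not well above background on any array. The 6 fibroblast markers summed to 7.72 and 42.0 on the CD44+ and to 67.8 and 450.0 on the CD44- arrays, with 6 of 6 below 0 and 0 called by limma, although 6 had an unadjusted p under 0.05. The 6 endothelial markers summed to 0.495 and 1.13 against 3.60 and 64.2, with 4 of the 5 tested below 0. Among the cell-type sums, CD44- replicate 2 was the highest array for the endocrine, fibroblast, endothelial, tuft and parietal lists. The same was so for Hdc, Slc18a2 and Maoa. The tuft cell list, at 1.89 and 3.44 against 7.19 and 16.8, ran the same way, with 4 of 5 tested below 0 and Il25 called, at least 2.79-fold lower.

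Mast cell proteases ran in the opposite direction. The 9 mast cell genes with a probe summed to 10.6 and 15.0 on the CD44+ and to 3.53 and 3.24 on the CD44- arrays. Of the 7 tested, the proteases Mcpt1, Mcpt2, Mcpt4 and Cma1 were higher in CD44+ cells without overlap, and the receptor genes Kit (0.06) and Fcer1a (0.13) and the tryptase gene Tpsb2 (0.05) lay below the 0.16 of all genes. The median was 1.45, and the mucosal mast cell protease gene Mcpt1 rose in CD44+ cells by 2.94 ± 0.45 (limma adjusted p = 0.0478). Among defining markers, Ms4a2, a chain of the high-affinity IgE receptor, was not well above background on any array, and Cpa3 was so on 2 arrays. The 9 leukocyte genes with a probe summed to 2.20 and 1.92 against 1.72 and 1.71. Of the 8 tested, 5 had differences above and 3 below 0. Cd53 was called, at least 9.06-fold higher in CD44+ cells, while Tyrobp (fitted -1.74), Laptm5 (-1.48) and Ptprc (-0.66) were lower without overlap and not called, and the macrophage marker Adgre1 was not well above background on any array. The platelet list summed to 3.02 and 4.90 against 1.96 and 2.52, with 4 of the 6 tested above and 2 below 0. Its chemokine genes had opposite signs: Pf4 was at 2.42 (adjusted p = 0.177), and Ppbp was called at a fitted -4.05 (adjusted p = 0.0391), or -3.27 with its background value on CD44+ replicate 1 raised to the lowest level well above background. Itga2b was not well above background on any array. The neuron and glia list summed to between 14.0 and 30.9 over the 4 arrays, of which S100b, a glial gene, made up 91.8% to 96.2%. Of its 6 tested genes 4 were above and 2 below 0, with Elavl4, a neuronal RNA-binding protein gene, at a fitted -2.07 without overlap (adjusted p = 0.144), Tubb3 at 0.37, Nefl at 0.47 and Stmn2 at 0.02. Snap25 and Nefm were at background on all 4 arrays. Of the 4 basophil genes 2 were tested, and Mcpt8 was not well above background on any array. The 3 parietal cell genes with a probe, 2 of them tested, summed to 0.337 and 0.456 against 1.61 and 21.8. The 6 epithelial markers summed to 2082 and 1452 against 1943 and 821, most of it from Krt8, Krt18 and Krt19. Their median difference was 0.49, and -0.08 without CD44- replicate 2. Of the 6, 5 were above 0, and Cldn4 was at a fitted -2.19 without overlap (limma adjusted p = 0.252).

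The genes closest to a member in profile were found by the root-mean-square (RMS) distance between centred log2 levels over the 4 arrays, among 11659 genes well above background on all of them. With 4 arrays and 1 contrast, closeness describes these arrays. Nearest to Tph1 was Pyy (RMS 0.271), the peptide YY hormone gene of gut endocrine cells, at 1.36 and 0.56 in CD44+ against 5.99 and 6.24 in CD44- cells. Then came Lypd3 (0.307), a keratinocyte surface protein gene, Mt4 (0.340), a metallothionein of stratified epithelium, Mgll (0.454), the monoglyceride lipase gene, and Fgfbp1 (0.491). All 5 were called lower in CD44+ cells. Nearest to Maoa were Slco2a1 (0.256), a prostaglandin transporter gene, Rcn1 (0.316), Apoe (0.351), Matk (0.353) and Lgi2 (0.367), of which Slco2a1 and Lgi2 were called. These were, like Maoa, higher on CD44- replicate 2 than on replicate 1, whereas Tph1's neighbours were less than 2-fold apart there. The neighbours were chosen on these same 4 arrays, so they share a member's group difference and replicate pattern by selection. Slc18a1, which was nearly flat, lay closest to Zfc3h1 (0.0188), Zfr (0.0293), Stat3 (0.0323), Mepce (0.0335) and Akap8 (0.0374), whose differences were between -0.24 and -0.13. Hdc was left out, since it was at background on 1 array.

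The rest of the amine pathway was taken from 9 lists holding 93 genes, of which 85 had a probe and 60 were tested. None of the 60 was called by limma, 9 had an unadjusted p under 0.05 (3 higher and 6 lower in CD44+ cells, 15.0% of the 60, against 10.8% of all genes), and the median difference was 0.17, near the 0.16 of all genes. Other synthesis genes were mostly at background. Tph2, Tyr and Aanat were not well above background on any array, and Dbh (0.04) and Pnmt (0.35), the later enzymes of catecholamine synthesis, differed little. The 7 remaining tetrahydrobiopterin genes were all tested, 5 above and 2 below 0, with Pcbd1 at 0.49 and the GTP cyclohydrolase feedback regulator Gchfr at -0.47. Their median, 0.16, was that of all genes.

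Of the 12 other breakdown genes 11 were tested, 4 above and 7 below 0, with a median of -0.12. Hnmt, the intracellular histamine methyltransferase, had a difference of 1.47 ± 0.58 (adjusted p = 0.393). Aoc1, the diamine oxidase that degrades extracellular histamine, was at background on both CD44+ arrays. Its fitted difference of -2.04 (adjusted p = 0.224) became 0.21 with those arrays raised to the lowest level well above background, so its sign was not established. Aoc3, a vascular amine oxidase, was at background on CD44+ replicate 1, with a fitted difference of -2.23 ± 1.36 (adjusted p = 0.702) and -1.08 with that array raised in the same way. Among 12 plasma-membrane and precursor transporters, 7 were tested with a median of 0.13. Slc7a8, a neutral amino acid transporter, was at -2.41 ± 0.53 (adjusted p = 0.125), and the related Slc7a5 at 0.72, while the amine transporters Slc6a2, Slc22a2 and Slc22a3 were at background on all arrays. In the competing kynurenine branch of tryptophan use, 6 of 9 genes were tested, 4 above 0. Ido1, its entry enzyme, was at 1.60 ± 0.44 (adjusted p = 0.197), the sign opposite to that of Tph1, with Aadat at 0.84 and Ido2 at 0.48 and Kmo and Kynu at background throughout.

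Of 14 serotonin receptors 5 were tested, none called, with Htr1d at 0.84, Htr5a at 0.70 and Htr2b at 0.46, and 8 (Htr1a, Htr1b, Htr2a, Htr3a, Htr3b, Htr4, Htr5b and Htr7) were not well above background on any array. Of 4 histamine receptors Hrh1 (0.42) and Hrh3 (0.38) were tested, Hrh4 was at background, and Hrh2 had no probe matched. Of 14 adrenergic and dopamine receptors 11 were tested, with a median of 0.32. Drd2, a dopamine receptor gene, was at 1.14, and none was called. The 14 regulators of enterochromaffin and enterochromaffin-like cells gave 9 tested genes, 3 above and 6 below 0, with a median of -0.45. That median changed sign with the setting, to 0.11 at the highest and -1.01 at the lowest. Nkx2-2 and Rfx6 were at background on both CD44+ arrays, and their fitted differences of -1.39 and -1.23 became 0.01 and -0.17 with those arrays raised to the lowest level well above background. Gata2, at background on CD44+ replicate 1, went from -2.56 ± 1.23 (adjusted p = 0.545) to -1.41 in the same way, and Lmx1a was at background on all arrays.

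**Figure D4:**
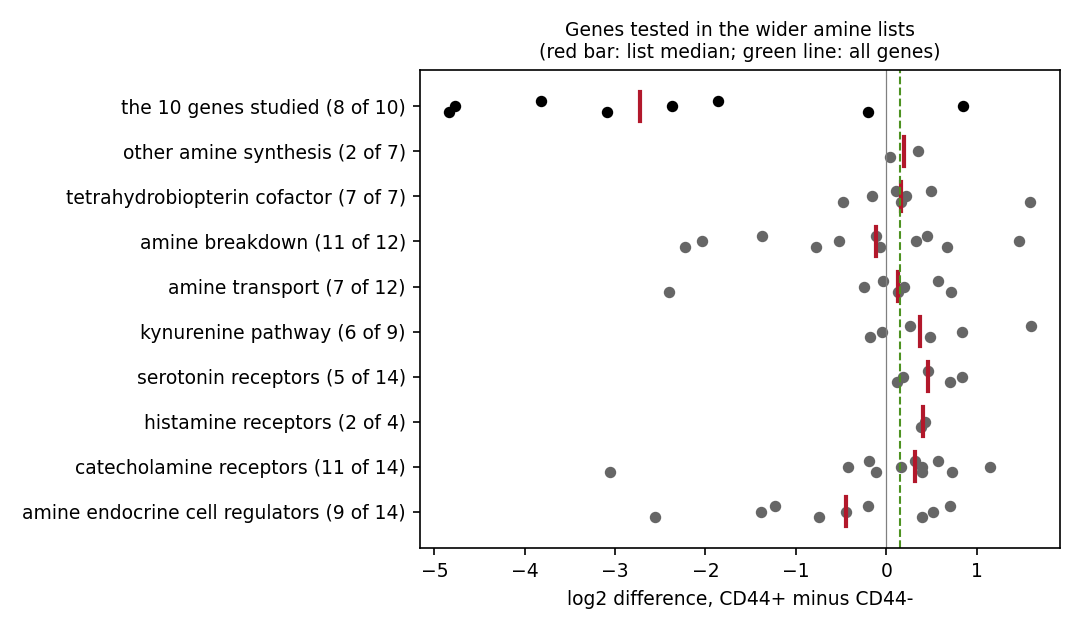
Log2 difference, CD44+ minus CD44-, of every tested gene (points) and the median (red bars) of the members and of each of the 9 pathway lists, with the number tested of those listed, beside the median of all genes (0.16, dashed line). Genes at background on some arrays are plotted at their fitted difference, and the medians of the 9 lists lay between -0.45 and 0.46, against -2.73 for the members tested. Members and lists were chosen with earlier results of these data known.

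The calls of the members differed with the scaling, the filter, the variance model and the arrays used, and the cause was not tested. Tph1 kept its direction in all 15 other settings tried and was called in 12 of them, its difference between -5.34 and -3.54. Maoa was called in 10 of 15, and Hdc in 8 of the 14 settings that tested it. Slc18a2 was called in 5, Maob in 3 and Ddc in 1 of 15, and Slc18a1 and Gch1 in none. In the settings that tested these 8, the groups of 7 or 8 of them did not overlap, and Slc18a1 was the member that overlapped where 1 did. The share without overlap over all genes was not taken in these settings. With 1 array left out, groups fail to overlap more easily, so this count is no measure of robustness. The count of called members ranged from 0 to 6. The authors' own value table called 4 members (Hdc, Maoa, Slc18a2 and Tph1) beside 3.58% of all genes, and scaling each array to its median, which moved the median of all genes by 0.105, called the same 4 beside 3.55%. These settings are nearly 1 and the same, since the authors' table matched a scaling to the array median. Normexp background correction added Maob to these, with 2.57% of all genes called. A trend in the variance model called Hdc, Maoa and Tph1 beside 0.618% of genes, and so did the 75th percentile taken over all spots, beside 0.532%. With probes required to be well above background on all 4 arrays, Maoa and Tph1 were called beside 0.459% of genes. Limma called 0 members with quantile normalisation (0.0285% of genes), with no filter on low signal (0.0728%) and without CD44+ replicate 2 (0.0095%), although 6 had an unadjusted p under 0.05 in each. Without CD44- replicate 1 it called 4 beside 7.56%, without CD44- replicate 2 it called 4 beside 2.2%, and without CD44+ replicate 1 it called Tph1 beside 0.162%. With the replicate number as a block, 6 members were called beside 8.69% of all genes. In that setting and with normexp, limma's prior df was infinite, against 6.01 in the main setting. All genes then shared the same variance, and every member had the same standard error (0.516 with the block). Calls and p-values of these settings therefore do not use each gene's own spread. Without either CD44- array the prior df was 87.8.

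**Figure D5:**
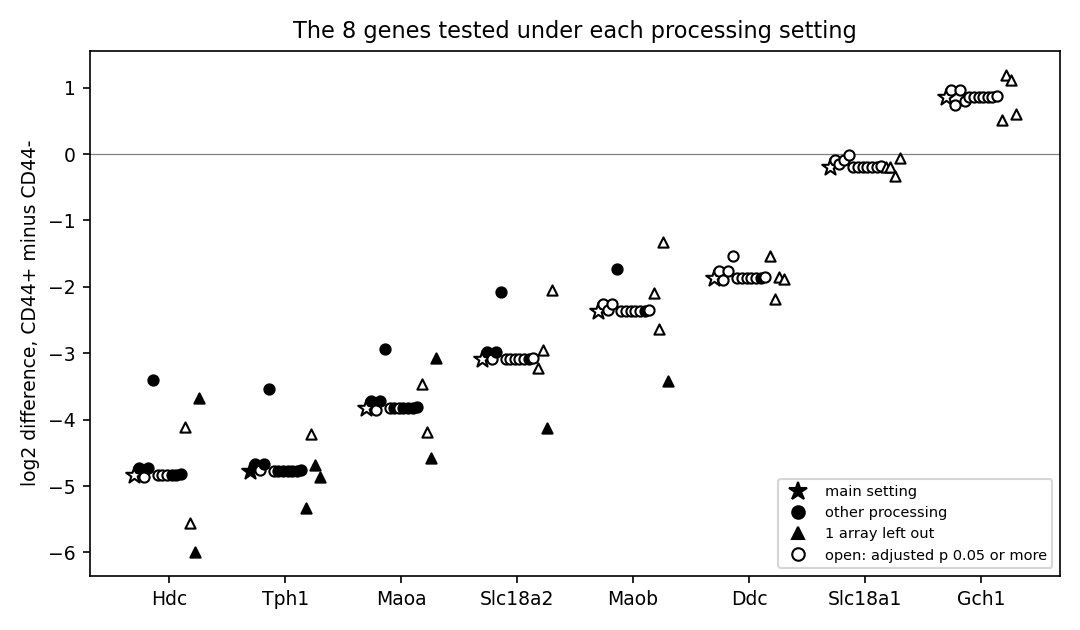
Log2 difference, CD44+ minus CD44-, of each tested member under the main setting (star), other processing (circles) and with 1 array left out (triangles), filled where the adjusted p was under 0.05. All Tph1 points lie between -5.34 and -3.54, and the Gch1 and Slc18a1 points are never filled.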

How the data were processed

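RNA of Lin- CD44+ and Lin- CD44- tumour cells was amplified, labelled with Cy3 and hybridised to 1 Agilent array a sample, per the labels' protocols. The deposited scanner tables hold processed signal, an intensity that Agilent Feature Extraction had background-subtracted; the file headers name version 10.1.1.1 and the submitters' processing notes 9.5. The deposited value table, used as an alternative, is a linear ratio: over 10728 probes with a signal above 200 it matched processed signal times 1 constant an array (SD at most 0.00121, log2), divided by the probe's median over the 4 arrays. The constants lay within 0.0027 (log2) of scaling to the array median. Column medians were 0.739 to 0.989 and the lowest value 0.01.

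Spots flagged as outliers were dropped (109 to 133 an array), spots of a probe were averaged, and log2 signal was set relative to the array's 75th percentile over probes. Accessions were matched to RefSeq symbols (GRCm38.p6): 24375 of 41174 probes had one, and the design's own build was older. A gene was represented by its brightest probe, tested if well above background on both arrays of a group, with limma 3.58.1 (R 4.3.3) and empirical Bayes variances (prior df 6.01, residual df 2), adjusted over 21045 genes. Permuting 2 arrays against 2 cannot give an exact p below 0.333, so no permutation test is reported. The test was checked on simulated data with independent noise. Array deviations shared by genes were left out there, so the check does not cover them. The number of arrays limits the precision. The members and the lists were chosen with earlier results of these data known. Named are all members, up to 3 called genes a direction from each list or otherwise the 3 largest differences, genes never above background, and the 5 genes nearest in profile to Tph1, Maoa and Slc18a1. Some genes that made up most of a list's sum are named too. Alternatives were scaling, background correction, filter, outlier spots, probe rule, variance trend, replicate block and leaving out each array. Some genes that this naming rule selects are not reported here.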

Additional observations from a re-analysis of the deposited data

How the results depend on the processing

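With 84 genes and 1 member called in the main setting, most alternatives called more, and the cause was not tested. With the authors' deposited values 753 genes and 4 members were called. Scaling to the median called 748 genes and 4 members, normexp background correction 540 and 5, each probe as its own feature 114 and 2, a trend in the variance model 130 and 3, and the 75th percentile over all spots (an alternative chosen after seeing the data) 112 and 3. Quantile normalisation called 6 genes and 0 members and testing with no filter on dim probes 24 and 0 (6 members had an unadjusted limma p under 0.05 in each), while requiring all 4 arrays above background called 79 and 2. Keeping outlier spots called 84 and 1. The share of calls that were higher in CD44+ cells was 5.95% in the main setting, 16.2% with median scaling, 16.1% with the value table, 18.1% with normexp and 22.8% with all 4 arrays above background.

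Leaving out an array in turn gave 2 to 1590 called genes and 0 to 4 called members, the lowest without CD44+ replicate 2 and the highest number of genes without CD44- replicate 1; the lone array of a group was then assumed to vary like the others. The replicate number as a block called 1829 genes and 6 members (Ddc, Hdc, Maoa, Maob, Slc18a2 and Tph1). The labels do not say what the number marks, so same-numbered arrays were not treated as pairs. With 2 pairs their deviations correlated at 0.347, which cannot settle whether they are paired. A slide or scan block could not be run, since all 4 arrays share both. No member's difference changed sign: over the alternatives, 89 member values kept their side of the threshold, 27 passed it newly and 3 lost it. The median difference of 11 of the 20 wider lists changed sign when 1 array was left out, and that of the regulators of enterochromaffin cells also when all 4 arrays had to be above background; 9 medians never did. Signal limits Th and Slc6a4, at background on all arrays, and Hdc on 1.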
